A study of Mus musculus with 11 samples.

Results

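The transcripts described here encode the subunits of BLOC-1 and BORC, a pair of related protein complexes that move and build lysosomes and their relatives. BLOC-1 sorts cargo from endosomes into lysosome-related organelles such as melanosomes, and its loss causes a form of Hermansky-Pudlak syndrome. BORC sits on the lysosome surface, recruits the small GTPase Arl8 and thereby couples lysosomes to kinesins that carry them toward the cell edge. Bloc1s1 belongs to both complexes, and its mRNA is the classical substrate of RIDD, the decay of mRNAs cut by the RNase domain of the ER stress sensor IRE1. RIDD is known to rise in some cell types, cDC1s among them, when they lack XBP1, the transcription factor made from the mRNA that IRE1 splices. The members are the 8 subunits of BLOC-1, namely Bloc1s1 to Bloc1s6, Snapin and Dtnbp1, out of 24421 genes in the count table. All 8 passed the filter on low counts, which left 10951 genes to test. Bloc1s1, Bloc1s2 and Snapin are also subunits of BORC, and the 5 subunits that BORC has to itself (Borcs5, Borcs6, Borcs7, Borcs8 and Kxd1) were measured beside them. The question was whether Bloc1s1 alone changed among the subunits of its complexes when XBP1 was lost with and without the RNase domain of IRE1.

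Bulk RNA-seq covered 11 pools of tumor cDC1s, the dendritic cells that cross-present antigen to CD8+ T cells. The pools were sorted from B16 melanoma of C57BL/6 mice. The study injected tumor cells intradermally in the flank and calls the tumors subcutaneous. Every pool was sorted from the pooled tumors of 2 to 4 mice of 1 genotype and held 5000 to 20000 cells. The mice of the study were 6 to 14 weeks old and of both sexes. All 11 pools carried XBP1 fl/fl, an allele that loses exon 2 of Xbp1 where Cre is made. The 4 control pools had no Cre, replicates 1 to 3 being XBP1 fl/fl and replicate 4 being XBP1 fl/fl and IRE1 fl/fl. The 4 XBP1ΔDC pools were XBP1 fl/fl with CD11c-CRE, a transgene driven by the Itgax promoter, so deletion took place in all CD11c+ cells of the mouse and not in cDC1s only. The 3 XBP1ΔDCIRE1truncDC pools were XBP1 fl/fl and IRE1 fl/fl with CD11c-CRE, and in them Ern1 also lost exons 20 and 21, which leaves a truncated IRE1 without RNase activity. Both Cre-positive groups differ from the controls by the transgene as well as by the deleted alleles, and these cannot be told apart in a comparison with controls.

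The count tables held 21089065 to 26843486 counts per pool. Xbp1 counts were lower in XBP1ΔDC pools, at 130 to 165 CPM against 244 to 271 CPM in control pools, where CPM is the read count scaled to library size after TMM normalization. In XBP1ΔDCIRE1truncDC pools Xbp1 was at 179 to 236 CPM, also below every control pool. Ern1 was at 9.82 to 19.0 CPM in control pools, 9.74 to 15.6 CPM in XBP1ΔDC pools and 17.0 to 26.0 CPM in XBP1ΔDCIRE1truncDC pools. Counts per gene include the exons that remain, so they do not measure the deletions. The 10 genes listed as cDC1 markers, Xcr1 and Clec9a among them, were present in every pool and summed to 8309 to 10029 CPM. Irf8 alone gave 3618 to 4491 CPM of this sum. Because pigment cells also use BLOC-1, 7 melanoma markers were summed. They gave 8.96 to 60.9 CPM in control pools, 12.2 to 64.7 CPM in XBP1ΔDC pools and 8.74 to 11.02 CPM in XBP1ΔDCIRE1truncDC pools, 0 of the 4 that passed the filter were called in any comparison by edgeR, and their part in the results was not tested. Summed plasmacytoid DC markers (Siglech and Ccr9) ran from 17.04 to 22.99 CPM, from 9.24 to 15.4 CPM and from 2.89 to 12.5 CPM in the same order of groups, and their part was not tested either. Summed macrophage and monocyte markers (8 genes, 0 of the 7 tested called by edgeR) ran from 20.9 to 35.2 CPM, from 23.8 to 86.2 CPM and from 19.98 to 77.4 CPM.

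Sequence stretches that carry the core of the IRE1 cleavage site are shown first, because they set Bloc1s1 beside its partners before any measurement. IRE1 is known to cut within a loop whose core reads CTGCAG in DNA letters, a palindrome that is the same on both strands. The transcripts are GENCODE vM21 models on GRCm38, 1 coding transcript per gene. The Bloc1s1 transcript, from the minus strand of a gene at chr10:128917882-128924035, has 550 bases and 4 exons and holds this core at 4 places. Each is printed with 12 bases on either side and the core in capitals, named by the base of the transcript at which the core starts.
Bloc1s1 at base 39: atagtccagttcCTGCAGccttagggaggg
Bloc1s1 at base 144: gaacgcaaggagCTGCAGgagaagaggagg
Bloc1s1 at base 175: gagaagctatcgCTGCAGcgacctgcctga
Bloc1s1 at base 447: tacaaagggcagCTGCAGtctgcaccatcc
The first lies in the 5′ UTR (exon 1, chr10:128923481-128923486), and the other 3 lie in coding sequence, in exon 1 (chr10:128923376-128923381), exon 2 (chr10:128922697-128922702) and exon 4 (chr10:128920012-128920017).

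The same core was found in Xbp1 and in 4 of the 7 other subunits. For these the first coding occurrence is printed in the same way.
Xbp1 at base 838: ctatgtgcacctCTGCAGcaggtgcaggcc
Bloc1s3 at base 376: gcgcgctcgctgCTGCAGctccggttggct
Bloc1s5 at base 378: ctgggggagaccCTGCAGagattgcaagca
Bloc1s6 at base 310: tacttaccagatCTGCAGaggtccaagcga
Dtnbp1 at base 464: agcctgaacgagCTGCAGgggcagctgcag
These cores lie at chr11:5524302-5524307 in exon 4 of Xbp1, chr7:19507293-19507298 in exon 2 of Bloc1s3, chr13:38619094-38619099 in exon 3 of Bloc1s5, chr2:122742696-122742701 in exon 2 of Bloc1s6 and chr13:44982802-44982807 in exon 5 of Dtnbp1. Bloc1s3 has 2 cores in 3188 bases, Bloc1s5 has 3 in 5634, Bloc1s6 has 3 in 3484 and Dtnbp1 has 4 in 1362. No match was found in the transcripts of Bloc1s2 (885 bases), Bloc1s4 (1273 bases) or Snapin (1928 bases), which says only that these letters are not in those models. Of the BORC-specific subunits, Borcs5 holds 4 cores, Borcs7 holds 2 and Borcs8 holds 1, and no match was found in Borcs6 or Kxd1. These 6 letters are common in mRNAs: 85.8% of 10332 tested genes with a coding model hold them. Among 133 tested genes whose transcript is within 20% of the length of Bloc1s1, 39.1% hold the core, and Bloc1s1 is the only 1 with at least 4. The presence of the core is a description of the letters and not of cleavage.

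Bloc1s1 fell in tumor cDC1s without XBP1 and did not differ detectably from control in those that also lacked the IRE1 RNase. The protein is a subunit of both complexes. Control replicates 1 to 4 gave 40.6, 34.8, 32.0 and 31.4 CPM of its transcript, from 703 to 958 reads per pool. In XBP1ΔDC replicates 1 to 4 it stood at 19.2, 23.1, 14.4 and 19.1 CPM, from 375 to 505 reads. In XBP1ΔDCIRE1truncDC replicates 1 to 3 it was at 34.1, 36.1 and 41.9 CPM, from 776 to 963 reads. The highest XBP1ΔDC pool lay below the lowest pool of both other groups, whose ranges overlapped each other.

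Against control, the log2 fold change of Bloc1s1 in XBP1ΔDC was -0.87 (standard error 0.146, 95% interval -1.19 to -0.56, adjusted p = 0.0105 from edgeR). This put the XBP1ΔDC level at 54.6% of control, with an interval of 43.8% to 67.9%. In XBP1ΔDCIRE1truncDC against control it was 0.11 (standard error 0.155, interval -0.23 to 0.44, adjusted p = 0.874 from edgeR). In XBP1ΔDCIRE1truncDC against XBP1ΔDC it was 0.98 (standard error 0.155, interval 0.64 to 1.32, adjusted p = 0.0410 from edgeR). These 3 comparisons share their groups and are not independent of each other. In pools of cells, fewer cells with the transcript and less transcript per cell cannot be told apart. In the comparison of both Cre-positive groups, the call was lost when any 1 pool other than XBP1ΔDC replicate 2 was left out, while the log2 fold change stayed between 0.87 and 1.09. It was also lost with only those groups in the fit (adjusted p = 0.195 from edgeR). Against control, the call in XBP1ΔDC held without any 1 pool, with a largest adjusted p of 0.0455 from edgeR and log2 fold changes of -0.98 to -0.76. With the replicate number added to the fit as a block, the log2 fold change was -0.88 and this call was lost (adjusted p = 0.0525 from edgeR). XBP1ΔDC replicate 3, the pool with the least Bloc1s1, also had the most of the macrophage genes C1qa (13.1 CPM), C1qb (22.4 CPM) and C1qc (17.1 CPM) of all pools, and without it the log2 fold change was -0.76 (adjusted p = 0.0246 from edgeR). The call held without control replicate 4, the pool with both floxed alleles, at -0.92 (adjusted p = 0.0224 from edgeR). In GENCODE vM21 the gene Rdh5 overlaps Bloc1s1 on the same strand. Rdh5 had 3 to 31 counts per pool, and how reads in the shared stretch were assigned is not given in the sources used here.

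**Figure D1:**
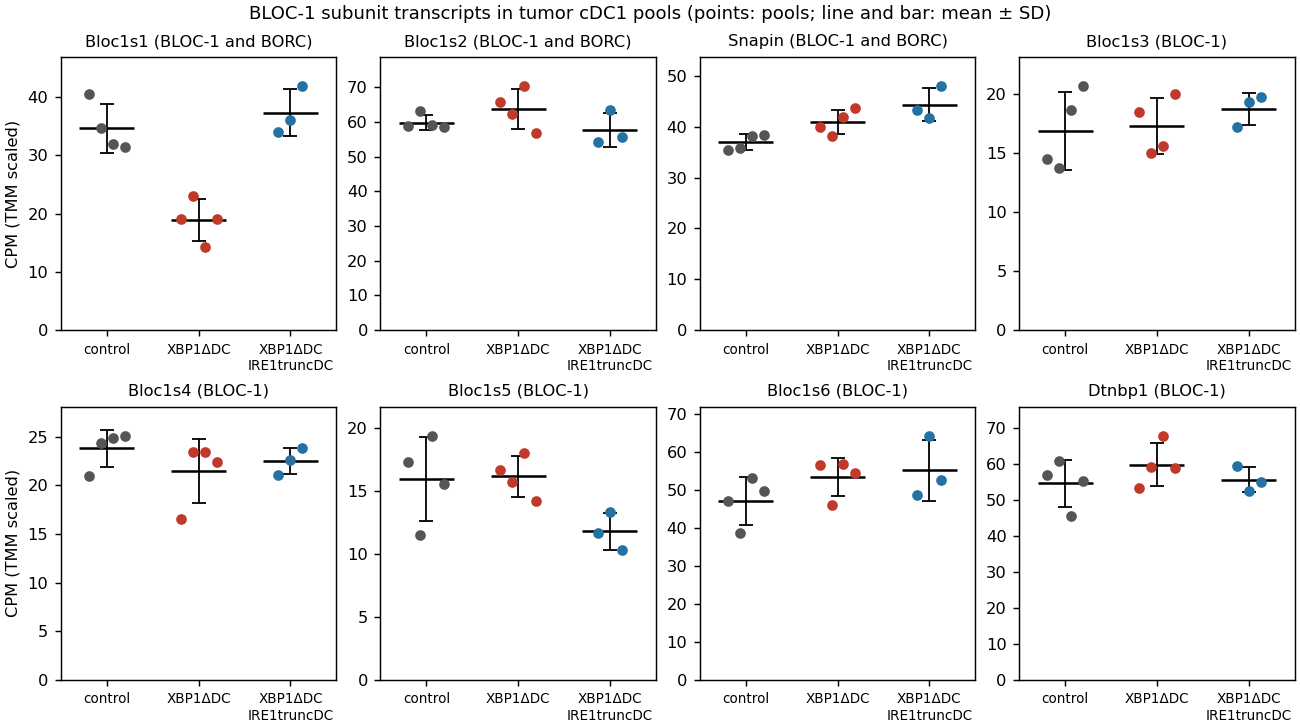
CPM after TMM scaling (y axis, from 0) of the 8 BLOC-1 subunits in each pool, by genotype group (x axis). Points are pools, and the line and bar give the mean ± SD of 4, 4 and 3 pools. Bloc1s1 is the panel in which all XBP1ΔDC pools (14.4 to 23.1 CPM) sit below all other pools (31.4 to 41.9 CPM).

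Of the 8 subunits, 1 was called in XBP1ΔDC against control (adjusted p under 0.05 and fold change above 1.5 in edgeR), against 0.493% of all genes tested. In XBP1ΔDCIRE1truncDC against control 0 of 8 were called by edgeR, against 0.21% of all genes, and 2 of 8 had an unadjusted p under 0.05, against 11.2%. DESeq2 and limma voom also called 0 there. In XBP1ΔDCIRE1truncDC against XBP1ΔDC 1 of 8 was called, Bloc1s1 again, against 0.0731% of all genes. The 7 other subunits gave log2 fold changes of -0.15 to 0.18 in XBP1ΔDC against control, with a median of 0.09 beside 0.00 over all genes. Of them 1 was lower and 6 were higher, 0 had an unadjusted p under 0.05 (7.62% of all genes did), and 0 had groups that did not overlap (5.31% of all genes did). Their 95% intervals together spanned -0.43 to 0.45, which is at most a 1.36-fold change either way, and 0 of the 7 intervals held the change of Bloc1s1. The share of all genes with such an interval was not computed. Bloc1s1 had the 82nd lowest change of 10951 genes, so this last count is not particular to the complex.

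**Figure D2:**
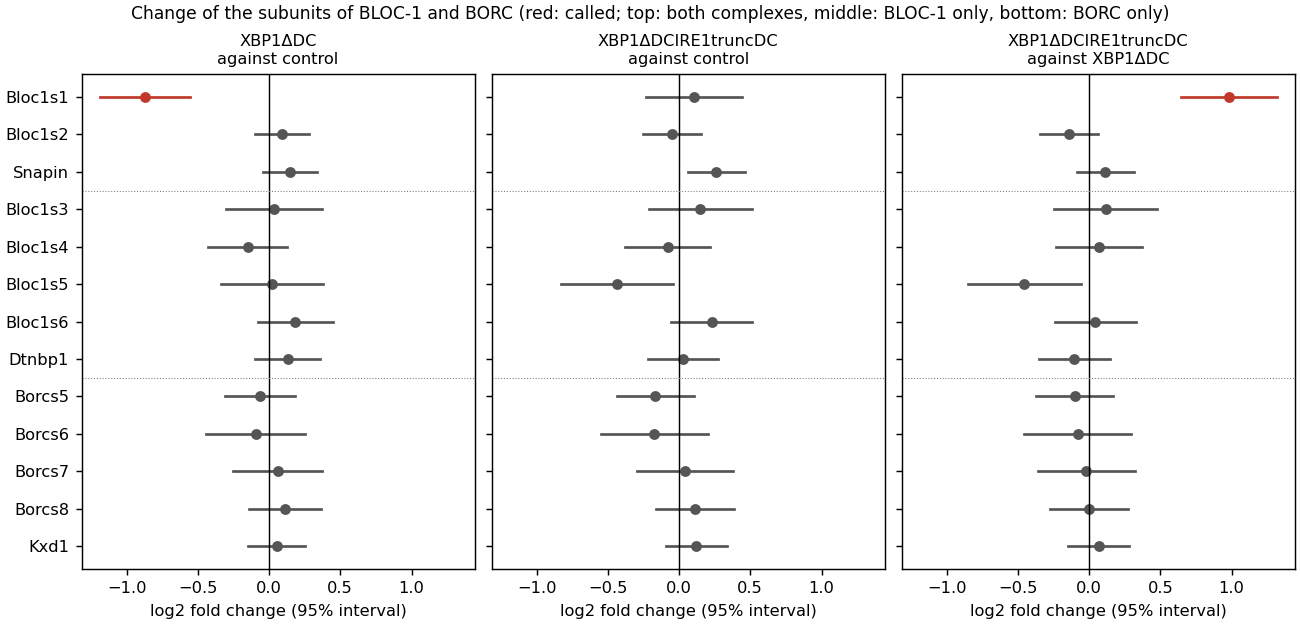
Log2 fold changes with 95% intervals (x axis) of the 8 BLOC-1 subunits and 5 BORC-specific subunits (y axis) in the 3 comparisons, from edgeR. Red marks the called subunit, which is Bloc1s1 at -0.87 and 0.98, and the intervals of the other subunits lie around 0 apart from Bloc1s5 and Snapin.

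Among the subunits that BLOC-1 and BORC share, Bloc1s2 and Snapin did not follow Bloc1s1. For Bloc1s2, a core helical subunit, control replicates 1 to 4 gave 58.7, 63.1, 59.0 and 58.5 CPM. XBP1ΔDC replicates 1 to 4 gave 65.8, 62.2, 70.3 and 56.9 CPM, and XBP1ΔDCIRE1truncDC replicates 1 to 3 gave 54.3, 63.4 and 55.8 CPM. All 3 groups overlapped, and the highest single value was in XBP1ΔDC replicate 3, where Bloc1s1 was lowest. Its log2 fold change was 0.09 in XBP1ΔDC (interval -0.10 to 0.28) and -0.05 in XBP1ΔDCIRE1truncDC (interval -0.25 to 0.16) against control. Snapin, first known as a binding partner of the SNARE protein SNAP25, measured 35.5, 35.7, 38.2 and 38.4 CPM over control replicates 1 to 4. The XBP1ΔDC pools, in replicate order, measured 40.0, 38.1, 42.0 and 43.6 CPM, and the XBP1ΔDCIRE1truncDC pools 43.3, 41.7 and 47.9 CPM. The double-deficient pools were all above the control pools, while the XBP1ΔDC pools overlapped both. Relative to control, Snapin had a log2 fold change of 0.15 in XBP1ΔDC (adjusted p = 0.789 from edgeR) and 0.26 in XBP1ΔDCIRE1truncDC (interval 0.06 to 0.46, adjusted p = 0.311 from edgeR). Snapin was the 1 of the 7 others whose pools did not overlap in the latter comparison, as held for 10.1% of all genes. In the annotation, Snapin overlaps Ilf2 on the opposite strand at its end, and whether the counting used strand is not given in the sources used here.

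Of the 5 subunits found in BLOC-1 only, Bloc1s5 stood lowest in the double-deficient pools. Bloc1s5, also known as muted after a mouse coat color mutant, measured 17.3, 11.5, 19.4 and 15.6 CPM over control replicates 1 to 4. Over XBP1ΔDC replicates 1 to 4 it measured 16.7, 15.7, 18.0 and 14.2 CPM, and over XBP1ΔDCIRE1truncDC replicates 1 to 3 it measured 11.7, 13.3 and 10.3 CPM. The double-deficient pools were below every XBP1ΔDC pool and below 3 of 4 control pools, control replicate 2 lying among them. The log2 fold change of Bloc1s5 was -0.43 in XBP1ΔDCIRE1truncDC against control (interval -0.83 to -0.04, adjusted p = 0.385 from edgeR) and -0.45 against XBP1ΔDC (interval -0.85 to -0.06, adjusted p = 0.904 from edgeR). Neither passed the test. In XBP1ΔDC against control it was 0.02. Against XBP1ΔDC, Bloc1s5 was the 1 of the 7 others with an unadjusted p under 0.05 (5.29% of all genes) and the 1 with groups that did not overlap (6.07% of all genes).

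The other BLOC-1 subunits overlapped between all groups. Dtnbp1 encodes dysbindin, a dystrobrevin-binding coiled-coil protein. It was at 45.4 to 60.8 CPM in control pools (replicates 1 to 4 at 56.8, 60.8, 45.4 and 55.3), at 53.4 to 67.8 CPM in XBP1ΔDC pools and at 52.5 to 59.5 CPM in XBP1ΔDCIRE1truncDC pools. Its log2 fold change was 0.13 in XBP1ΔDC (interval -0.10 to 0.36) and 0.03 in XBP1ΔDCIRE1truncDC against control. Bloc1s6, or pallidin, which binds the SNARE syntaxin 12, gave 47.0, 38.5, 53.1 and 49.6 CPM over control replicates 1 to 4. The XBP1ΔDC pools gave 56.4, 46.0, 56.8 and 54.4 CPM in replicate order, and the XBP1ΔDCIRE1truncDC pools gave 48.7, 64.1 and 52.5 CPM. The Cre-positive means were above the control mean, within the spread of the pools, with log2 fold changes of 0.18 and 0.23 (adjusted p = 0.833 and 0.571 from edgeR). Bloc1s4, also called cappuccino, was at 20.98 to 25.1 CPM in control pools, 16.6 to 23.5 CPM in XBP1ΔDC pools and 21.1 to 23.8 CPM in XBP1ΔDCIRE1truncDC pools. It was the 1 other subunit with a negative value in XBP1ΔDC, -0.15 (interval -0.43 to 0.13). XBP1ΔDC replicate 1 at 16.6 CPM was far below the other 3 pools of its group. Bloc1s3, known from the reduced pigmentation mouse, was at 13.7 to 20.6 CPM, 14.998 to 19.99 CPM and 17.2 to 19.7 CPM in the 3 groups. Its log2 fold changes were 0.03 and 0.15 against control.

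The difference between Bloc1s1 and each other subunit was tested directly, as the log2 ratio of the 2 transcripts within each pool, with limma over all genes. In XBP1ΔDC against control the change of Bloc1s1 was below that of all 7 others, by -1.07 (Bloc1s6) to -0.72 (Bloc1s4) on the log2 scale, with adjusted p-values from limma of 0.00171 to 0.00867. Because every such ratio contains Bloc1s1, 86.6% of all genes also differed from it, and the count of 7 is therefore not particular to the complex. In XBP1ΔDCIRE1truncDC against control 0 of 7 differed by limma, beside 0.0183% of all genes. The differences were -0.15 to 0.52, with a smallest adjusted p of 0.866 from limma. In XBP1ΔDCIRE1truncDC against XBP1ΔDC all 7 differed again, by 0.87 (Bloc1s3) to 1.45 (Bloc1s5), with adjusted p-values from limma of 0.00136 to 0.00712, beside 88% of all genes. The ratios within single pools ran as follows. Bloc1s1 to Bloc1s2 stood at 0.536 to 0.692 in control pools, 0.204 to 0.371 in XBP1ΔDC pools and 0.570 to 0.751 in XBP1ΔDCIRE1truncDC pools. Bloc1s1 to Snapin stood at 0.816 to 1.14, 0.342 to 0.606 and 0.786 to 0.873, and Bloc1s1 to Dtnbp1 at 0.567 to 0.714, 0.212 to 0.38996 and 0.572 to 0.761. The XBP1ΔDC ratios lay below every control ratio for 6 of the 7 subunits, Bloc1s3 being the exception with 0.924 to 1.54 against 1.52 to 2.80 in control. Between both Cre-positive groups the ratios did not overlap for any of the 7. Bloc1s1 by itself already separated the groups in both comparisons. The share of all genes with such ratios was not computed, so neither count is particular to the complex.

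**Figure D3:**
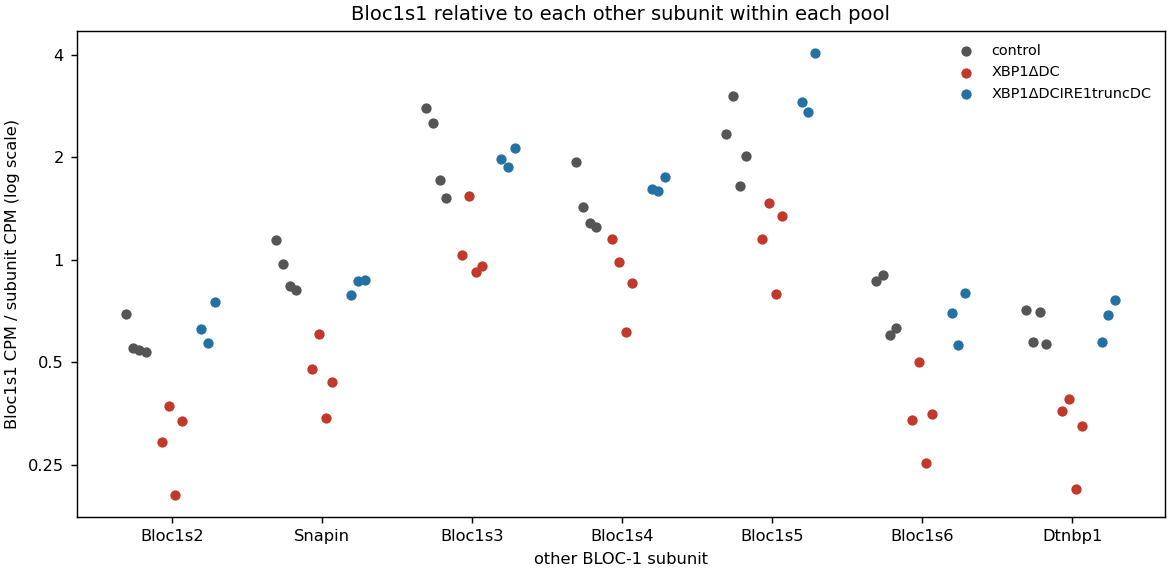
Ratio of Bloc1s1 CPM to the CPM of each other BLOC-1 subunit (x axis) in each pool, on a log2-spaced y axis, with points colored by genotype group. The XBP1ΔDC points are the lowest of each column, apart from the overlap with control at Bloc1s3 (1.54 against 1.52).

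By group mean, the Bloc1s1 transcript ranked 2nd of the 8 subunits in control, 3rd in XBP1ΔDC and 1st in XBP1ΔDCIRE1truncDC pools. Levels are compared between genes as CPM per kb of the chosen transcript, which depends on the annotated length, long 3′ ends included. In control pools Bloc1s2 (67.6 ± 2.45 CPM per kb, SD, n = 4) and Bloc1s1 (63.1 ± 7.67) were the most abundant, and their pools overlapped. Dtnbp1 followed at 40.1 ± 4.797, then Snapin at 19.2 ± 0.813 and Bloc1s4 at 18.7 ± 1.503, whose pools also overlapped. Bloc1s6 was at 13.5 ± 1.78, Bloc1s3 at 5.29 ± 1.03 and Bloc1s5 last at 2.83 ± 0.594. In XBP1ΔDC pools Bloc1s1 was at 34.4 ± 6.50 CPM per kb (SD, n = 4), behind Bloc1s2 (72.1 ± 6.41) and Dtnbp1 (43.9 ± 4.37), with pools that overlapped those of Dtnbp1 but not those of Bloc1s2. In XBP1ΔDCIRE1truncDC pools it was at 67.9 ± 7.34 CPM per kb (SD, n = 3), beside Bloc1s2 at 65.3 ± 5.52, and their pools overlapped. The order of the 6 other subunits after Bloc1s2 was the same in all 3 groups.

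**Figure D4:**
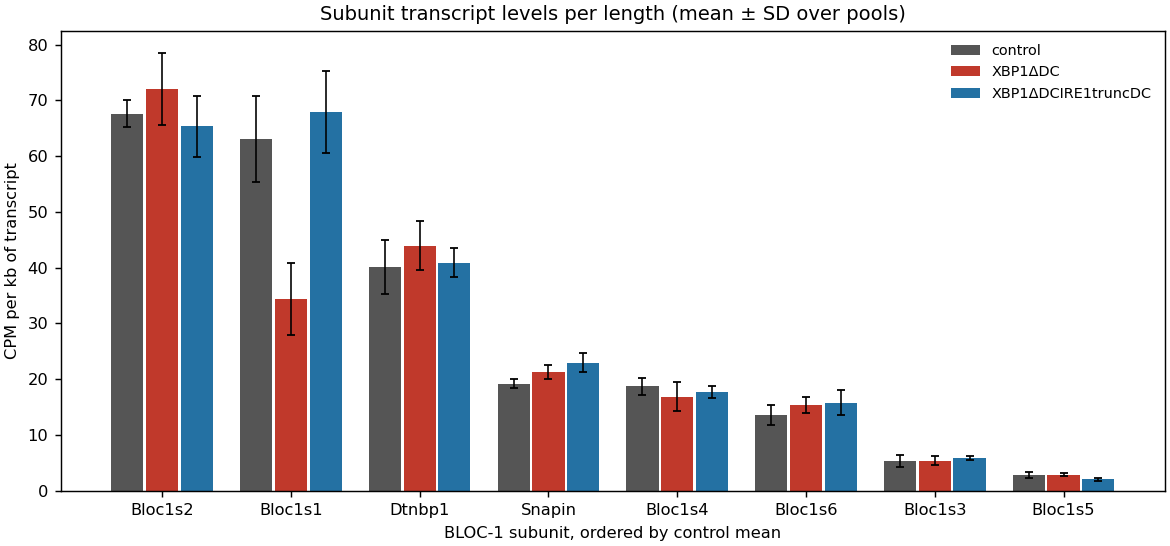
Mean CPM per kb of transcript (y axis, from 0) of the 8 BLOC-1 subunits, ordered by the control mean (x axis), for the 3 genotype groups. Bars are means and whiskers are SD over 4, 4 and 3 pools, and Bloc1s1 is at 63.1, 34.4 and 67.9.

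The 5 subunits that BORC has to itself gave 0 calls by edgeR, DESeq2 or limma voom in each of the 3 comparisons, and 0 had an unadjusted p under 0.05 in any. Over all genes the shares called were 0.493%, 0.21% and 0.0731%, and those at an unadjusted p under 0.05 were 7.62%, 11.2% and 5.29%, so a count of 0 among 5 genes is near the background. In XBP1ΔDC against control their log2 fold changes ran from -0.09 (Borcs6) to 0.11 (Borcs8), with a median of 0.05. Borcs5, the myristoylated subunit that ties BORC to the lysosome membrane, was at 18.6 to 22.9 CPM in control pools, 17.7 to 21.5 CPM in XBP1ΔDC pools and 17.3 to 18.4 CPM in XBP1ΔDCIRE1truncDC pools. The last group lay below every control pool, 10.1% of all genes having no overlap there, with a log2 fold change of -0.17 (interval -0.44 to 0.10). Kxd1, a small subunit with a KxDL motif, was at 47.4 to 59.1 CPM, 54.0 to 60.6 CPM and 55.3 to 64.6 CPM. Borcs8 was at 29.4 to 36.2 CPM, 31.7 to 39.6 CPM and 31.7 to 37.2 CPM, Borcs7 at 12.6 to 16.6 CPM, 11.98 to 17.1 CPM and 14.3 to 16.2 CPM, and Borcs6 at 8.77 to 10.8 CPM, 7.29 to 10.7 CPM and 8.41 to 8.80 CPM. All 3 groups overlapped for each of these 4 subunits. In the annotation Borcs8 overlaps Mef2b on the same strand, so its counts may share reads with that gene. The change of Bloc1s1 differed from that of all 5 in XBP1ΔDC against control, by -0.996 to -0.779 on the log2 scale (adjusted p of 0.00171 to 0.00704 from limma), beside 86.6% of all genes, so this count is not particular to BORC either.

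The machinery around the complexes also gave 0 calls by edgeR, DESeq2 or limma voom in each comparison. The shares of all genes called by edgeR were 0.493%, 0.21% and 0.0731%, so 0 calls in such short lists is near the background. Of 8 genes for Arl8 GTPases, their adaptors and motors, 2 were below control in XBP1ΔDC at an unadjusted p under 0.05, beside 7.62% of all genes at that p and 0.493% called. These were Plekhm1, an adaptor that links late endosomes to fusion factors, at -0.27, and Arl8b, the GTPase that BORC recruits, at -0.22 (adjusted p = 0.518 and 0.571 from edgeR). The 5 genes of Ragulator, the lysosomal complex that binds BORC and anchors mTORC1 signaling, held Lamtor2 at -0.17 and Lamtor3 at 0.20, both also at an unadjusted p under 0.05 (adjusted p = 0.622 and 0.646 from edgeR). Among 5 genes of BLOC-2 and BLOC-3, Hps1 was at 0.22, also at an unadjusted p under 0.05 (adjusted p = 0.565 from edgeR), and Hps6 at 0.19. Among 6 genes of AP-3, the coat that works with BLOC-1 in cargo sorting, Ap3m2 was at 0.30 and Ap3m1 at -0.13. Of 8 partners of BLOC-1 carriers 7 were tested, with Rab32, a GTPase of lysosome-related organelles, at -0.12 and Rab11a, a GTPase of recycling endosomes, at 0.07. Vamp7 was listed at 0 in all pools. Whether this comes from the cells or from how reads were assigned was not tested. The medians of these lists in XBP1ΔDC against control were -0.01, -0.02, 0.00, 0.07 and -0.05 in the order given. In XBP1ΔDCIRE1truncDC against control, 2 of 8, 0 of 5, 1 of 5, 1 of 6 and 1 of 7 genes had an unadjusted p under 0.05. These counts follow the same order of lists and stand beside 11.2% of all genes. In XBP1ΔDCIRE1truncDC against XBP1ΔDC 0 genes of each list had such a p, beside 5.29% of all genes.

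Outside the complexes, the genes whose log2 CPM followed Bloc1s1 most closely over the 11 pools were Evi2a (Pearson r = 0.976), Tapbp (0.961), Slc1a5 (0.947), Pomgnt1 (0.942) and Cnpy3 (0.939). Tapbp encodes tapasin of the MHC class I loading complex, and Slc1a5 encodes a glutamine transporter. These 5 share the group pattern, so the correlation describes mostly the gap between XBP1ΔDC and the other pools. Slc1a5 was at 195 ± 12.6 CPM in control (SD, n = 4), 108 ± 4.55 CPM in XBP1ΔDC (n = 4) and 207 ± 7.03 CPM in XBP1ΔDCIRE1truncDC (n = 3). Evi2a was at 179 ± 16.7, 113 ± 18.6 and 177 ± 12.996 CPM. The 7 other BLOC-1 subunits had r of -0.61 (Bloc1s2) to 0.27 (Bloc1s4) with Bloc1s1, and the BORC-specific ones -0.27 (Borcs5) to 0.11 (Kxd1).

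Among 79 RIDD substrates that the study listed, 78 were tested, and 0 of the other subunits of either complex are on that list. Bloc1s1 had the 7th lowest log2 fold change of the 78 in XBP1ΔDC against control and the highest in XBP1ΔDCIRE1truncDC against XBP1ΔDC. Over all 10951 genes tested it ranked 82nd from the bottom in the former and 83rd from the top in the latter.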

How the data were processed

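RNA-seq reads of 11 pools of tumor cDC1s were processed by the authors, whose notes name FastQC 0.11.8, Trimmomatic 0.39, STAR 2.7.3a, limma 3.42.2 and the build mm10, and reads were counted with HTSeqCount. The annotation release and strand setting are not given in the sources used here. The deposited counts are raw reads per gene. The deposited log2 values were checked and equal log2 CPM from voom after TMM scaling. From these counts, edgeR 4.0.16 (under R 4.3.3) kept genes above 1 CPM in at least 4 pools and ran TMM scaling, 1 quasi-likelihood fit of the 3 groups and Benjamini-Hochberg adjustment over all 10951 genes tested. Ratios to Bloc1s1 used limma 3.58.1 on log2 CPM with a prior count of 2. The scripts were tested on simulated data. Intervals are 95% and standard errors are the log2 fold change over the square root of F. A gene was called at an adjusted p below 0.05 if its fold change also exceeded 1.5. Alternatives covered DESeq2 1.42.0, limma voom, scaling, filters, fits of 2 groups, the replicate number as a block and leaving out each pool. For the BORC-specific subunits and other lists they were added after seeing the data. The members and lists were chosen with earlier results of these data known. Genes named are the members, the BORC-specific subunits, Xbp1 and Ern1, the 2 genes with the smallest p in XBP1ΔDC against control in each other list, any gene called there, and the 5 most correlated with Bloc1s1. Other genes named (Rdh5, Ilf2, Mef2b, Siglech, Ccr9, Xcr1, Clec9a, Irf8, C1qa, C1qb, C1qc, Vamp7) serve as markers, overlaps or exceptions. BORC subunits were matched through older symbols. Coordinates are from GENCODE vM21 on GRCm38.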

Additional observations from a re-analysis of the deposited data

Results flagged for a closer look

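Of 30 groups of 4 pools examined for a pool far from its group, 3 had one, and chance alone marks about 1 in 20. Bloc1s2 was at 63.1 CPM in control replicate 2, against 58.5 to 59.0 CPM in the other control pools. Bloc1s4 was at 16.6 CPM in XBP1ΔDC replicate 1, against 22.4 to 23.5 CPM in the other XBP1ΔDC pools. Borcs5 was at 22.9 CPM in control replicate 4, the pool with both floxed alleles and no Cre, against 18.6 to 19.1 CPM in the other control pools. None of these 3 subunits was called with or without these pools. Without XBP1ΔDC replicate 1 the log2 fold change of Bloc1s4 in XBP1ΔDCIRE1truncDC against XBP1ΔDC went from 0.07 to -0.03, and without control replicate 4 that of Borcs5 in XBP1ΔDC against control went from -0.06 to 0.01.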

How the results depend on the processing

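Under DESeq2, limma voom, the newer edgeR method, other scalings and filters, the deposited log2 values, and without any 1 pool, Bloc1s1 kept its direction and its call in XBP1ΔDC against control. Between both Cre-positive groups its call was less secure. With only those groups in the fit its log2 fold change was 0.98 (adjusted p = 0.195 from edgeR) and 0 subunits were called. Leaving out single pools gave 0.87 to 1.09 and 0 to 1 subunits called. The call held only without XBP1ΔDC replicate 2 (adjusted p = 0.0219 from edgeR), and without each other pool the adjusted p from edgeR was 0.0579 to 0.211. The cause was not tested.

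In the sample labels, pools with the same replicate number share only that number. The correlation of their deviations from the group means averaged 0.0979 in XBP1ΔDC and control, with all 4 pairs positive (0.042 to 0.133). It averaged 0.00353 in XBP1ΔDCIRE1truncDC and control, and -0.221 in both Cre-positive groups. Whether control and XBP1ΔDC pools of the same number were handled together is not given in the labels and was not tested. With the replicate number as a block, Bloc1s1 was at -0.88 in XBP1ΔDC against control (adjusted p = 0.0525 from edgeR) and at 0.98 in XBP1ΔDCIRE1truncDC against XBP1ΔDC (adjusted p = 0.278 from edgeR), with 0 subunits called in either.

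No alternative gave a call to another subunit. Values near 0 changed sign when single pools were left out. In XBP1ΔDC against control these were Bloc1s3 (-0.054 to 0.14), Bloc1s5 (-0.11 to 0.13), Borcs5 (-0.13 to 0.012), Borcs7 (-0.00283 to 0.16) and Kxd1 (-0.014 to 0.086). In XBP1ΔDCIRE1truncDC against control they were Dtnbp1 (-0.050 to 0.084) and Borcs7 (-0.021 to 0.11). In XBP1ΔDCIRE1truncDC against XBP1ΔDC they were Bloc1s4 (-0.035 to 0.11), Bloc1s6 (-0.082 to 0.13), Borcs6 (-0.17 to 0.00789), Borcs7 (-0.12 to 0.039) and Borcs8 (-0.052 to 0.067). Borcs8 also turned in the last comparison, from -0.0016 to 0.00392 with DESeq2, 0.0129 with limma voom, 0.00396 with the newer edgeR method, 0.00336 with DESeq2 size factors, 0.00298 with no filter and 0.000564 with the deposited log2 values. The number of pools, 3 or 4 a group, limits the precision, and the intervals beside the values give it.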
